A study of Mus musculus with 4 samples.

Results

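The heat shock proteins and the chaperones that work with them were followed in mouse embryonic stem (ES) cells in which Morc3 had been put back. The members were taken by gene symbol and not by their values, though earlier results of these data were known. They are the Hspa, Hspb, Hspd, Hspe, Hsph and Hsp90 genes and the Dnaja, Dnajb and Dnajc genes. Cct2 to Cct8, Bag1 to Bag6 and the heat shock factors Hsf1 and Hsf2 complete the list. The rule gave 90 of the 24054 genes counted, and 81 of the 90 had enough reads to be tested. No row of a numbered pseudogene was among them.

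Wild type is the ES cell line wt26, with 1 library. The 3 rescue clones T131-3C, T131-3D and T131-3M, written here as 3C, 3D and 3M, carry a full-length Morc3 cDNA on a PiggyBac transposon in the Morc3 ko clone KO27-2, which was itself made from wt26. Each was picked as a single puromycin-resistant colony, so all 3 descend from 1 ko line. All cells were grown without feeders on gelatin in serum and LIF, and rRNA-depleted RNA was sequenced from both ends with a directional kit. The comparison of the clones with wild type asks how far the transcripts of cells with Morc3 put back still differ from those of the line they came from; the ko libraries were not analysed here.

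Chaperones bind unfolded or newly made proteins and keep them from sticking together. Hsp70 proteins do so in cycles of ATP hydrolysis that J-domain proteins (the Dnaj genes) start and that nucleotide exchange factors such as the Bag and Hsp110 proteins end, Hsp90 finishes many kinases and receptors, and the Cct ring folds actin and tubulin. Under proteotoxic stress Hsf1 raises Hspa1a, Hspa1b, Hspb1, Dnajb1 and other genes through heat shock elements in their promoters, while unfolded protein in the endoplasmic reticulum (ER) raises a separate set, led by Hspa5, through other elements. ES cells are known for high levels of constitutive chaperones.

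Depth and identity were checked first. Read pairs counted on genes numbered 18789457 in wild type and 13620914 to 15479190 in the clones, with 14.5% of all read pairs unmapped in wild type and 21.0% to 23.0% in the clones. The Morc3 transcript stood at 161 CPM (counts scaled to 1000000 per library after correction for composition) in wild type, with rescue clones 3C, 3D and 3M at 655, 497 and 609 CPM (log2 fold change 1.87, SE 0.17, adjusted p = 0.108 in the edgeR quasi-likelihood test, Benjamini-Hochberg adjusted). Clone values below are in this order. The ES cell markers Pou5f1, Sox2 and Zfp42 were present in every library. Of 10 ES cell markers listed, 4 were above wild type in all clones (beside 28.7% of all genes tested) and 1 below (beside 28.4%). Nanog (300 CPM in wild type against 468, 358 and 481) and Fgf4 (168 against 191, 201 and 198) had an unadjusted p under 0.05. The summed primitive endoderm, mesoderm, ectoderm and trophectoderm markers were at 10.6 CPM or less each. Of the fibroblast markers Dcn was at 0 in all 4 and only Thy1, at 18.6 to 43.7 CPM, passed 2 CPM. With 1 wild-type library the spread in every test comes from the 3 clones, the wild-type value is taken to have the same spread, and an exact permutation of 3 against 1 cannot give a two-sided p below 0.25. The sources used here do not say whether a clone was cultured more than once.

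The chaperone genes as a set lay close to their wild-type level in the rescue clones. In bulk RNA, fewer cells that express a gene and less of its RNA per cell cannot be told apart. Of all gene counts they made up 2.44% (wild type), 2.40% (3C), 2.45% (3D) and 2.45% (3M), and the 3 Hsp90 genes alone held 40.6% to 41.8% of these in every library. The median log2 fold change (rescue over wild type) over the 81 tested members was 0.03, beside 0.005 over all 13267 genes tested. It was -0.0138 without clone 3D and -0.0077 without 3M. No member had a fitted change of 2-fold or more in either direction, and 59 of 81 (72.8%) lay within 0.25 of 0 on the log2 scale, beside 67.2% of all genes tested.

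At an adjusted p of 0.01 in the edgeR quasi-likelihood test, Benjamini-Hochberg adjusted, 0 of the 81 members were called, beside 1 of all 13267 genes tested (0.00754%), the Y-linked gene Ddx3y. At an unadjusted p under 0.05, 6 members (7.41%) were higher in the rescue clones, beside 5.92% of all genes tested, and 3 (3.70%) were lower, beside 4.42%. DESeq2 called 65 genes and 0 members, and limma-voom 0 genes. All 3 clones lay above wild type for 29 members (35.8%, beside 28.7% of all genes tested) and below it for 30 (37.0%, beside 28.4%), and the clones lay on both sides for 22. Both shares are above the background by a similar amount, and they are about equal to each other.

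**Figure D1:**
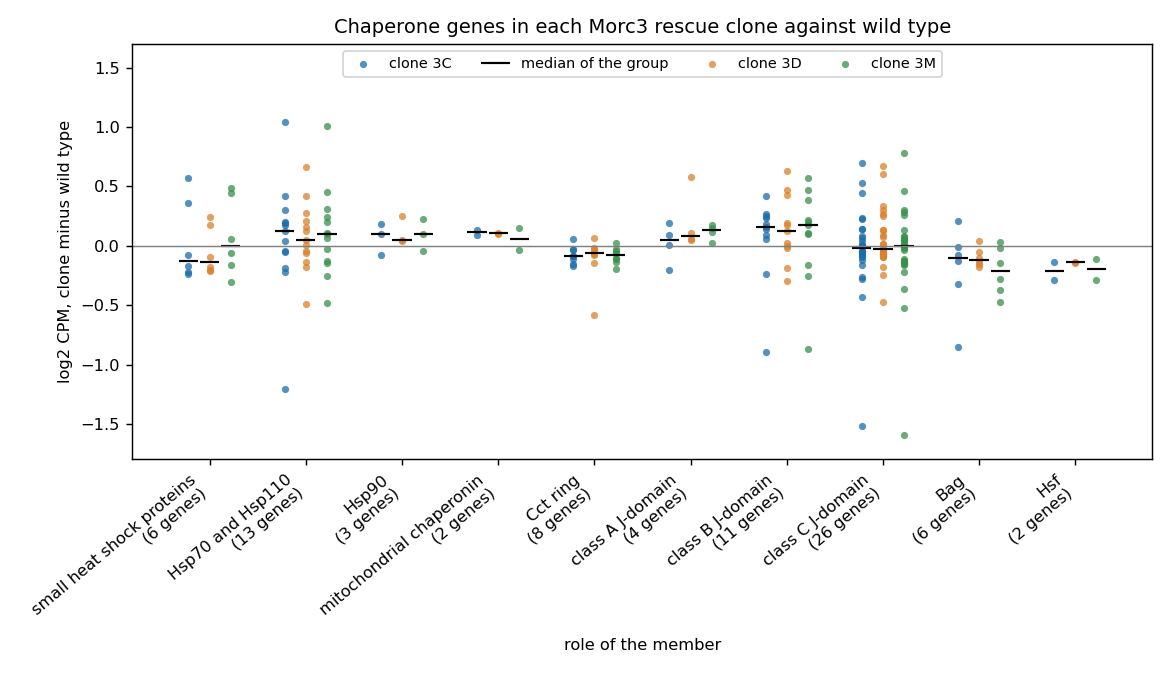
Difference in log2 CPM between each rescue clone and wild type (vertical axis) for the 81 tested members, grouped by role (horizontal axis); each point is 1 gene in 1 clone, and black bars are group medians. Most points lie within 0.5 of 0, most Cct ring genes lie just below 0, and the lowest points are Dnajc6 in clones 3C and 3M.

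Next, 13 members tied to the heat shock response were taken: heat-induced genes, the constitutive Hspa8 and the factors Hsf1 and Hsf2, which regulate the response. Of the 13, 7 were above wild type in all 3 clones (beside 28.7% of all genes tested) and 3 below it in all 3 (beside 28.4%), while Hsph1, Dnajb1 and Hspe1 had clones on both sides. The 3 below were Bag3 and both factors. The median log2 fold change of the 13 was 0.11, and 0.07 without 3C. An unadjusted p under 0.05 was reached by 2 of them, Hspa1b and Hspb1, both higher.

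Hspa1b, one of the pair of strictly inducible cytosolic Hsp70 genes, lies at chr17:34956429-34959238 of mm10. Its counts were 38 in wild type against 57, 47 and 64, or 1.99 CPM in wild type against 4.23, 3.23 and 4.13 CPM in the clones. All 3 clones were above wild type, at a fitted 1.93-fold (log2 fold change 0.95, SE 0.31, adjusted p = 0.404 and unadjusted p = 0.0226 in the edgeR quasi-likelihood test, Benjamini-Hochberg adjusted). This was the highest fitted change of any member, from one of the lowest levels.

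Hspa1a, its near-identical neighbour at chr17:34969359-34972156, had 11 counts in wild type against 10, 10 and 13, so that 0.577 CPM in wild type against 0.742, 0.687 and 0.839 CPM in the clones were found. Its log2 fold change was 0.39 with an SE of 0.48, larger than the change itself. Reads that fit both copies equally well map to more than 1 place and were not counted, so the levels of the pair are uncertain. The third gene of the cluster, the germ cell gene Hspa1l, had 2, 0, 0 and 1 counts and was not tested.

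The promoters of the pair are shown because these genes are the standard targets of Hsf1. The heat shock element was searched on both strands as GAANNTTCNNGAA, which is 3 alternating units, and the shorter GAANNTTC, which is 2 units and lies within it. Windows ran from 250 bases before to 50 bases after each RefSeq start site (GRCm38.p6, the assembly of mm10), and 73 of the 90 members had at least 1 window. Neither Hspa1a nor Hspa1b held the longer form in these letters, and both held the shorter one 104 bases before the start, in the same 48 bases (2-unit match in capitals):
Hspa1b, chr17:34959315-34959362, minus strand: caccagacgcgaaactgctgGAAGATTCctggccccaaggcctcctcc
Hspa1a, chr17:34972233-34972280, minus strand: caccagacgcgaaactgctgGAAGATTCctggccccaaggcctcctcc

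The 2-unit form is frequent: it was found in 7.86% of all 32851 promoter windows, and 17 members held it. Over the 684 tested genes with it the median log2 fold change was 0.004. A match is a match of letters only and does not say that a factor binds there.

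Hspb1 (Hsp27, an ATP-independent small heat shock protein that holds unfolded clients) was the other inducible gene with an unadjusted p under 0.05, at a much higher level. It lies at chr5:135887919-135889563 with 2587 counts in wild type against 2712, 2331 and 2860. These are 136 CPM in wild type against 201, 160 and 185 CPM in the clones, with every clone above wild type and 3D nearest to it. The fitted change was 1.34-fold (log2 fold change 0.42, SE 0.13, adjusted p = 0.398, edgeR quasi-likelihood test, Benjamini-Hochberg adjusted). Its promoter is shown because it holds the 2-unit form at 2 places, starting 117 and 97 bases before the start site (match in capitals):
Hspb1 first match, chr5:135887782-135887829, plus strand: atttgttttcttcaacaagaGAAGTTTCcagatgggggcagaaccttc
Hspb1 second match, chr5:135887802-135887849, plus strand: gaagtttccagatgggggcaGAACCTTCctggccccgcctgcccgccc

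Hsph1, Dnajb1, Dnaja1, Hsp90aa1 and Hspa8 had smaller fitted changes than Hspa1b and Hspb1. Hsph1 (Hsp110, an exchange factor for Hsp70) stood at 381 CPM in wild type against 431, 365 and 408 CPM in the clones, with clone 3D below wild type, and had a log2 fold change of 0.07 (SE 0.10). Dnajb1 (Hsp40, the J-domain partner of inducible Hsp70) had 66.1 CPM in wild type against 77.7, 65.1 and 71.0 CPM in the clones and a log2 fold change of 0.11 (SE 0.12), again with 3D just below wild type. In Hsph1, Dnajb1, Hspb1 and Hspa1b alike, 3C had the highest CPM of the 4 libraries and 3D the lowest of the clones.

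Dnaja1, a farnesylated J-domain protein, had 147 CPM in wild type against 169, 153 and 163 CPM in the clones, all above wild type (log2 fold change 0.13, SE 0.08). Hsp90aa1, the inducible cytosolic Hsp90, had 2973 CPM in wild type against 3184, 3070 and 3180 CPM in the clones, with a log2 fold change of 0.08 (SE 0.05). Hspa8, the constitutive cytosolic Hsp70, which is also the heat shock cognate of the family, had 1972 CPM in wild type against 2149, 2145 and 2124 CPM in the clones (log2 fold change 0.12, SE 0.05, unadjusted p = 0.0593). In these 5 genes the distance of each clone from wild type stayed below 0.25 on the log2 scale, and the 3 clones of Hspa8 were closer to each other (SD of log2 CPM 0.009) than any of them was to wild type.

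Set against Hspa8, the inducible pair was low in the reads counted. Reads that fit both copies of the pair were left out, so the ratios below may be too high. Per kilobase of exon, Hspa8 was 645 times as high as Hspa1b in wild type against 331, 433 and 335 times in the clones. The higher Hspa1b of the clones thus lies within low counts.

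Bag3, a stress-inducible co-chaperone that sends Hsp70 clients to autophagy, lay on the other side. It had 23.6 CPM in wild type against 12.98, 21.2 and 18.2 CPM in the clones, from 450, 175, 309 and 282 counts. All 3 clones were below wild type, but 3C was far lower than 3D, and the log2 fold change of -0.43 had an SE of 0.25 (unadjusted p = 0.14). The clones thus differed among themselves by more than 3D differed from wild type.

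The factors themselves were slightly lower. Hsf1, the master regulator of the heat shock response, had 45.1 CPM in wild type against 41.1, 40.9 and 37.0 CPM in the clones (log2 fold change -0.19, SE 0.11). Hsf2, a partner of Hsf1 that is prominent in early development, had 65.5 CPM in wild type against 53.5, 59.5 and 60.7 CPM in the clones (log2 fold change -0.18, SE 0.10). Neither had an unadjusted p under 0.05.

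**Figure D2:**
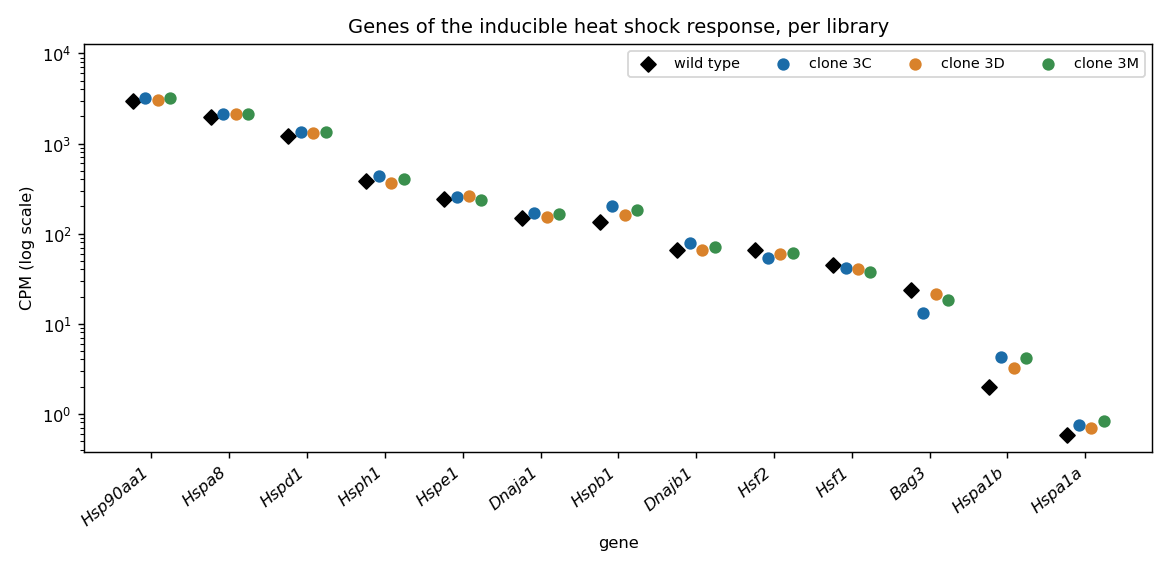
CPM on a log scale (vertical axis) of the 13 members tied to the heat shock response (horizontal axis, ordered by level in wild type). Wild type is shown as black diamonds and clones 3C, 3D and 3M as circles, 1 library each. The genes span levels from Hsp90aa1 at 2973 CPM to Hspa1a at 0.577 CPM in wild type. Most clones sit near the wild-type point except in Hspb1, Bag3, Hspa1b and Hspa1a.

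The mitochondrial chaperonin genes share a promoter region, which held the longest heat shock match among the members. Hspd1 (Hsp60, the folding barrel of the matrix) and Hspe1 (Hsp10, its lid) start back to back on chromosome 1, and an 18-base run that holds the 3-unit form on both strands stands between the starts searched, 72 to 89 bases before the start of Hspe1 and 127 to 144 bases before that of Hspd1 (in capitals, on the strand of each gene):
Hspe1, chr1:55088039-55088096, plus strand: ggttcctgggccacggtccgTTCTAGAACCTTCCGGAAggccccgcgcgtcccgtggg
Hspd1, chr1:55088039-55088096, minus strand: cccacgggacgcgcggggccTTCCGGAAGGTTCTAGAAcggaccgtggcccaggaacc

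RefSeq also extends Hspd1 out to position 55088243, beyond the match. Hspd1 had 1209 CPM in wild type against 1329, 1303 and 1340 CPM in the clones, all above wild type and close together (log2 fold change 0.13, SE 0.05, unadjusted p = 0.0507). Hspe1 had 241 CPM in wild type against 256, 258 and 235 CPM in the clones, with 3M below wild type (log2 fold change 0.05, SE 0.08). Per kilobase, Hspd1 was 2.80 times as high as Hspe1 in wild type against 2.90, 2.81 and 3.18 times in the clones.

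The 3-unit element was found in 0.603% of all promoter windows and in 4 members, Hspd1, Hspe1, Hsph1 (after its start site) and Dnajb6. Dnajb6, which keeps aggregating proteins soluble, had 42.5 CPM in wild type against 44.2, 48.1 and 48.8 CPM in the clones (log2 fold change 0.15, SE 0.10). Of the genes with the element 55 were tested, with a median log2 fold change of -0.01. Of the 55, 20 were above wild type in all 3 clones (beside 28.7% of all genes tested) and 17 below (beside 28.4%). Hsp90aa1, Hspa8 and Hsf1 had no window.

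The ER chaperones listed here lay mostly above wild type. The list was drawn up after the values had been seen and is not complete, so its counts are a description. Of the 8, 7 were above wild type in all 3 clones (beside 28.7% of all genes tested) and Dnajc1 was below it (beside 28.4%). Their median log2 fold change was 0.21. Their summed level was 1430 CPM in wild type against 1626, 1657 and 1675 CPM in the clones. J-domain members of the ER membrane left out include Dnajb12, Dnajb14 and Dnajc18, above wild type in all clones (log2 fold changes 0.15, 0.29 and 0.11). Also left out were Dnajc16 (0.15, clones on both sides) and Dnajc14 (-0.06, all clones below). Of the 6 members higher at an unadjusted p under 0.05, 3 were on this list, which holds 8 of the 81 tested members. The list was drawn up with these p-values known, so that count too is only a description.

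Hspa5 (BiP, the ER Hsp70) lies at chr2:34772090-34776529 and had 454 CPM in wild type against 522, 506 and 537 CPM in the clones. All clones were above wild type (log2 fold change 0.20, SE 0.06, adjusted p = 0.403 in the edgeR quasi-likelihood test, Benjamini-Hochberg adjusted). Hsp90b1 (Grp94, the ER Hsp90), at chr10:86690841-86705444, had 781 CPM in wild type against 885, 928 and 915 CPM in the clones. Here too no clone overlapped wild type (log2 fold change 0.22, SE 0.06, adjusted p = 0.323, same edgeR test, Benjamini-Hochberg adjusted).

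Dnajc3 (P58IPK, a J-domain protein of the ER lumen that serves Hspa5) lies at chr14:118937932-118981702. Its counts were 414 in wild type against 477, 480 and 581 in the smaller clone libraries, or 21.7 CPM in wild type against 35.4, 33.0 and 37.5 CPM in the clones. It had the lowest p of all members: the fitted change was 1.63-fold (log2 fold change 0.70, SE 0.12, unadjusted p = 0.00152, adjusted p = 0.191 in the edgeR quasi-likelihood test, Benjamini-Hochberg adjusted). Most tested genes of chromosome 14 were higher in the clones as well: their median log2 fold change was 0.35, and 365 of 465 were above wild type in all 3 clones. The part of this in the result for Dnajc3 was not tested, and Dnajc3 lay above that median in every clone, with log2 differences of 0.70, 0.60 and 0.79.

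These 3 genes also share a promoter feature. The ER stress element, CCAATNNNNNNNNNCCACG, was searched on both strands and was found in 0.119% of all promoter windows, in 37 genes. The only members among them were Hspa5, Hsp90b1 and Dnajc3, the 3 ER members with an unadjusted p under 0.05, and their matches are shown in capitals on the strand of the gene:
Hspa5, chr2:34772005-34772063, plus strand, 47 to 65 bases before the start: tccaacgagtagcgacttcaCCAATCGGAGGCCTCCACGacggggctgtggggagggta
Hsp90b1, chr10:86705618-86705676, minus strand, 194 to 212 bases before the start: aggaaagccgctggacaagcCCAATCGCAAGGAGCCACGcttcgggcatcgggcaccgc
Hsp90b1, chr10:86705513-86705571, minus strand, 89 to 107 bases before the start, element reversed: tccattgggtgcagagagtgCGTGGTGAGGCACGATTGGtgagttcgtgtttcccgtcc
Dnajc3, chr14:118937807-118937865, plus strand, 87 to 105 bases before the start: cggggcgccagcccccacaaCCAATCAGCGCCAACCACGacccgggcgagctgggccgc

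The same element was then followed in all genes. Of the 18 genes with it that were tested, 9 were above wild type in all 3 clones (beside 28.7% of all genes tested) and 2 below (beside 28.4%). The 9 include Hspa5, Hsp90b1 and Dnajc3, whose values were known before the search. The median log2 fold change was 0.09 over the 18 and 0.06 over the 15 that are not members. The match was searched after the ER genes had been seen to stand on one side, and it is a description of these windows.

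None of the remaining ER members of the list had an unadjusted p under 0.05. Dnajb9 (ERdj4, a J-domain protein that helps degrade misfolded ER proteins) had 10.1 CPM in wild type against 11.3, 14.02 and 13.2 CPM in the clones (log2 fold change 0.35, SE 0.18). Hspa13, an ER-bound Hsp70 relative, had 21.8 CPM in wild type against 24.998, 26.4 and 27.1 CPM in the clones (log2 fold change 0.26, SE 0.12). Dnajb11 and Dnajc10, both lumenal J-domain proteins, had log2 fold changes of 0.11 (SE 0.09) and 0.07 (SE 0.08).

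Dnajc1, an ER membrane J-domain protein, was the one of the 8 below. It had 13.2 CPM in wild type against 12.4, 12.9 and 11.8 CPM in the clones (log2 fold change -0.10, SE 0.14). Without Dnajc3, the only one of the 8 on chromosome 14, the median was 0.20. Of the other 7 genes, 6 were above wild type in all 3 clones (beside 28.7% of all genes tested). The list was drawn up with its values known, so this too is a description. The 3 ER chaperones in the lists outside the members all had fitted changes below 0. Hyou1, the ER Hsp110, had a log2 fold change of -0.04 (SE 0.07) and Sil1, an exchange factor for Hspa5, one of -0.13 (SE 0.19), both with clones on both sides of wild type. Serpinh1 (Hsp47, the collagen chaperone of the ER) had -0.62 (SE 0.11), with every clone below.

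**Figure D3:**
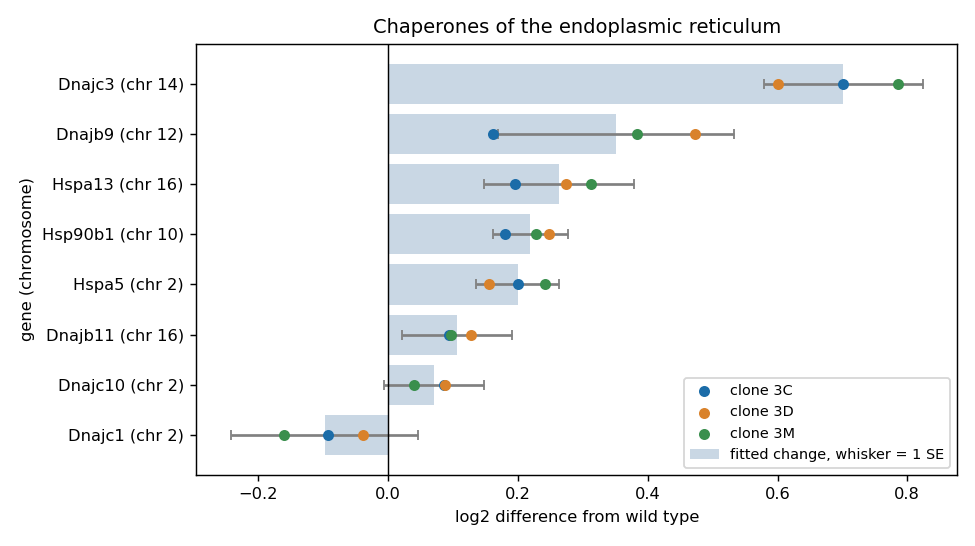
Log2 difference from wild type (horizontal axis) of the 8 listed ER chaperones (vertical axis, with their chromosomes). Bars give the fitted change with whiskers of 1 SE and points the 3 clones. The genes from Dnajc10 up to Dnajc3 have all 3 clones to the right of 0, and Dnajc1 has all 3 to the left.

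The 9 members listed as working in mitochondria had a median log2 fold change of 0.05, and 0.03 without 3D. Of the 9, 4 were above wild type in all clones (beside 28.7% of all genes tested) and 1 below (beside 28.4%). This list too was drawn up after the values had been seen and may not be complete, so its counts are a description. Hspa9 (mortalin, the matrix Hsp70) had 832 CPM in wild type against 858, 862 and 870 CPM in the clones (log2 fold change 0.05, SE 0.05). Dnajc15, a J-domain protein of the import motor, had the highest fitted change of the 9. It had 19.8 CPM in wild type against 23.4, 31.7 and 24.5 CPM in the clones (log2 fold change 0.42, SE 0.20). It lies on chromosome 14 at chr14:77826217-77874917, and clone 3D was the highest of the 3.

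Dnajc9, a J-domain protein that also chaperones histones H3 and H4, is the third tested member on chromosome 14, at chr14:20384638-20388910. It had 40.8 CPM in wild type against 55.5, 49.3 and 56.2 CPM in the clones, with no overlap with wild type (log2 fold change 0.39, SE 0.11, adjusted p = 0.349 in the edgeR quasi-likelihood test, Benjamini-Hochberg adjusted). Its change and that of Dnajc15 are close to the chromosome's median of 0.35. All 3 members of the chromosome that were tested were thus higher, as were most of its genes, and what part the chromosome has in their values was not tested. On chromosome 13, the only member was Hspb3, a muscle small heat shock protein, which had 0, 1, 0 and 0 counts and was not tested.

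Among the lower members Dnajc6 (auxilin, which uncoats clathrin vesicles with Hspa8) stood furthest from wild type. It lies at chr4:101496648-101642799 and had 1043 counts in wild type against 256, 672 and 280, or 54.7 CPM in wild type against 18.99, 46.2 and 18.1 CPM in the clones. Clones 3C and 3M were far below wild type (log2 differences of -1.52 and -1.59), while 3D was near it (-0.24). The fitted log2 fold change over the 3 was -0.98 with an SE of 0.50 and an unadjusted p of 0.0991, so the clones differed too much for a call.

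This call, and others, turned on clone 3D. Without 3D, the edgeR quasi-likelihood test, Benjamini-Hochberg adjusted, called 420 of 13243 genes (3.17%). It called 3 of the 81 members tested, a share close to that of all genes. Dnajc6 fell by 1.56 on the log2 scale (SE 0.12, adjusted p = 3.26e-05). Hspb1 rose by 0.51 (SE 0.08, adjusted p = 0.00267) and Dnajc3 by 0.75 (SE 0.13, adjusted p = 0.00396). These 3 calls rest on clones 3C and 3M alone, against the same single wild-type library, and 0 members were called without 3C or without 3M.

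Dnajc17, a nuclear J-domain protein linked to splicing, was lower with a small spread. It had 11.2 CPM in wild type against 8.31, 8.04 and 7.75 CPM in the clones, from 214, 112, 117 and 120 counts (log2 fold change -0.48, SE 0.16, adjusted p = 0.412 in the edgeR quasi-likelihood test, Benjamini-Hochberg adjusted). Bag4, which binds the death domains of TNF receptors, had 126 CPM in wild type against 101, 112 and 104 CPM in the clones (log2 fold change -0.26, SE 0.08, unadjusted p = 0.0247). Hspbap1, a protein named for its binding to Hspb1 and not itself a small heat shock protein, had 112 CPM in wild type against 95.6, 96.4 and 99.7 CPM in the clones (log2 fold change -0.20, SE 0.07, unadjusted p = 0.0376). In all 3 genes every clone was below wild type.

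**Figure D4:**
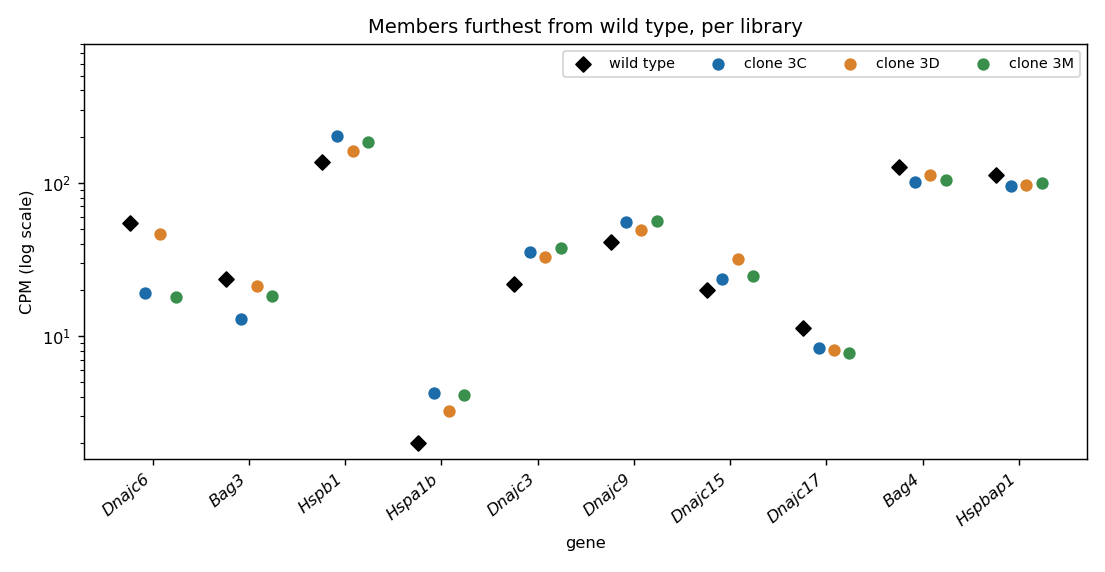
CPM on a log scale (vertical axis) of 10 members picked after their values were seen (horizontal axis). Wild type is shown as black diamonds and the 3 clones as circles, 1 library each. Members left out include Hspa12b, Hspa1a and Dnajb9. Their fitted log2 fold changes of -0.56, 0.39 and 0.35 are further from 0 than the -0.20 of Hspbap1, which is shown. Dnajc6 is low in clones 3C and 3M and near wild type in 3D, Bag3 is lowest in 3C, and Dnajc17 has its 3 clones close together below wild type.

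The core of the Cct ring lay in a narrow band. Its 7 core subunits among the members, Cct2, Cct3, Cct4, Cct5, Cct6a, Cct7 and Cct8, had log2 fold changes from -0.12 to 0.05, with a median of -0.07. They stood at 93.8 to 298 CPM per kilobase in wild type. The exon lengths behind these levels ran from 2557 bases in Cct2 to 6778 in Cct7, and this enters the range. Of the 7, 6 were below wild type in all 3 clones (beside 28.4% of all genes tested) and Cct6a above it, and none had an unadjusted p under 0.05. The eighth core subunit, Tcp1, is not a member by its symbol and had a log2 fold change of -0.02 (SE 0.06).

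Cct2 had the highest level of the ring per kilobase, with 761 CPM in wild type against 747, 747 and 739 CPM in the clones (log2 fold change -0.03, SE 0.05), and an SD of log2 CPM among clones of 0.009. The lowest per kilobase were Cct6b, a testis subunit, with 0.682 CPM in wild type against 0.593, 0.412 and 0.581 CPM in the clones (13, 8, 6 and 9 counts, log2 fold change -0.36, SE 0.50), and Cct8l1, at 0 counts in all 4 libraries. Prefoldin, which hands actin and tubulin to the ring, was close to wild type too. Of 8 prefoldin and partner genes tested, 0 were above wild type in all clones (beside 28.7% of all genes) and 2 below (beside 28.4%). Vbp1 was the one of them with an unadjusted p under 0.05 (log2 fold change -0.24, SE 0.09).

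Hsp90ab1, the constitutive cytosolic Hsp90, was the most abundant member per kilobase, at 2045 CPM per kilobase in wild type. It had 6134 CPM in wild type against 5797, 6317 and 5965 CPM in the clones, with 3D above wild type and the others below (log2 fold change -0.03, SE 0.06). Per kilobase it was 2.70 times as high as Hsp90aa1 in wild type against 2.39, 2.70 and 2.46 times in the clones. The order of the members that follow, Hsp90aa1 at 756, Hspa8 at 459 and Hspd1 at 458 CPM per kilobase in wild type, has the last 2 nearly equal.

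**Figure D5:**
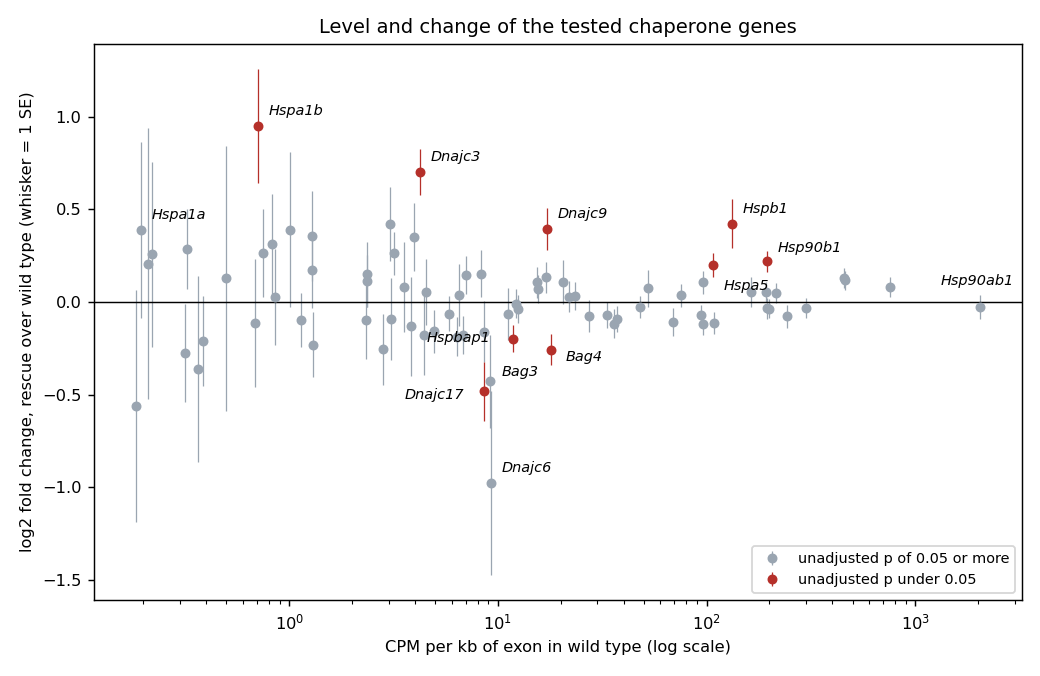
Fitted log2 fold change of rescue over wild type (vertical axis, whiskers of 1 SE) against the level in wild type in CPM per kilobase of exon (horizontal axis, log scale) for the 81 tested members; red marks an unadjusted p under 0.05. Members above 100 CPM per kilobase lie within 0.25 of 0 except Hspb1, and those with the widest whiskers are at the low end, with Dnajc6 the exception.

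Among the J-domain proteins 5 of 11 tested class B genes were above wild type in all clones (beside 28.7% of all genes tested) and 1 below (beside 28.4%), with a median log2 fold change of 0.15. Of 26 class C genes 8 were above and 9 below, and their median of 0.01 was -0.04 without 3D, -0.02 without 3M and -0.01 with no low-count filter. The 4 class A genes had a median of 0.12, which was 0.06 without 3D and 0.08 with unstranded counts. Dnaja2, a cytosolic partner of Hspa8 and the highest class A gene per kilobase, had 285 CPM in wild type against 303, 306 and 309 CPM in the clones (log2 fold change 0.11, SE 0.06). Dnajc8, a splicing-associated protein and the highest of class C per kilobase, had 193 CPM in wild type against 198, 195 and 200 CPM in the clones (log2 fold change 0.04, SE 0.06).

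Dnajb5, a relative of Dnajb1, had 7.71 CPM in wild type against 6.53, 6.73 and 6.45 CPM in the clones, all below wild type (log2 fold change -0.23, SE 0.18). Dnajc12, a co-chaperone of the aromatic amino acid hydroxylases, had 3.72 CPM in wild type against 5.42, 4.60 and 3.94 CPM in the clones, all above (log2 fold change 0.31, SE 0.27). Neither had an unadjusted p under 0.05.

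Of the 6 Bag genes 4 were below wild type in all clones (beside 28.4% of all genes tested) and 0 above (beside 28.7%). Their median log2 fold change was -0.14, and -0.07 without 3M. Bag1, an Hsp70 exchange factor and the highest of them per kilobase, had 93.3 CPM in wild type against 88.2, 86.8 and 84.4 CPM in the clones (log2 fold change -0.11, SE 0.08). Bag2, an inhibitor of the ubiquitin ligase Stub1 and the lowest per kilobase, had 13.5 CPM in wild type against 12.4, 13.9 and 9.68 CPM in the clones (log2 fold change -0.18, SE 0.22), with 3D above wild type.

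Of the other Hsp70 family genes, Hspa2, Hspa12a and Hspa4l were at low levels. Hspa2, the testis Hsp70, had 3.41 CPM in wild type against 4.60, 4.60 and 3.94 CPM in the clones (log2 fold change 0.36, SE 0.24), and Hspa12a, a distant relative of the family, had 3.57 CPM in wild type against 3.04, 3.23 and 2.97 CPM in the clones (log2 fold change -0.21, SE 0.24). Hspa4l, an Hsp110 gene, had 3.72 CPM in wild type against 3.26, 2.61 and 3.36 CPM in the clones (log2 fold change -0.27, SE 0.26). Its widely expressed paralog Hspa4 stood much higher, at 1094 CPM in wild type against 1063, 1065 and 1072 CPM in the clones (log2 fold change -0.04, SE 0.05). Hspa14, a ribosome-bound Hsp70 relative, had 146 CPM in wild type against 141, 129 and 134 CPM in the clones, all below wild type (log2 fold change -0.12, SE 0.08).

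The muscle small heat shock proteins Hspb2 and Hspb6 had log2 fold changes of 0.39 (SE 0.42) and -0.25 (SE 0.19). Hspb2 had 0.839 CPM in wild type against 1.11, 0.962 and 1.23 CPM in the clones, all above wild type, and Hspb6 had 6.50 CPM in wild type against 5.49, 5.64 and 5.23 CPM in the clones, all below. Neither reached an unadjusted p under 0.05.

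The clones differed most from each other in 5 members: Dnajb13, Dnajb3, Dnajc6, Hspa12b and Dnaja4. Apart from Dnajc6 these had at most 18 counts in any library. Dnajb13, a sperm flagellum gene, had 11, 11, 14 and 4 counts, the testis gene Dnajb3 had 10, 3, 9 and 13, Hspa12b, known from endothelium, had 13, 3, 10 and 7, and Dnaja4 had 15, 9, 18 and 14, in wild type, 3C, 3D and 3M. Clones lay on both sides of wild type in each of the 4.

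The 9 members that were not tested had at most 6 counts in any library. Cct8l1, Dnajb7 and Dnajc5g were at 0 in all 4 libraries, which allows a level of up to 0.157 CPM in wild type and of 0.194 to 0.223 CPM in the clones. Dnajb8, Dnajc5b, Hspa1l and Hspb3 had at most 2 counts in a library, and Hspb7 and Hspb9 at most 6. These limits cover counting error only.

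The chaperone partners outside the rule also lay close to wild type. Of 28 co-chaperones and other chaperones, all tested, 26 were within 0.25 of 0 on the log2 scale, 5 were above wild type in all clones (beside 28.7% of all genes tested) and 11 below (beside 28.4%), and the median log2 fold change was -0.03. The one with an unadjusted p under 0.05 was Sugt1, an Hsp90 partner on chromosome 14, with 172 CPM in wild type against 233, 233 and 224 CPM in the clones (log2 fold change 0.42, SE 0.07). Its value too lies near the chromosome's median.

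Of 9 further genes that heat shock raises, 2 were above wild type in all clones (beside 28.7% of all genes tested) and 2 below (beside 28.4%). Chordc1 and Serpinh1 lay furthest from wild type, in opposite directions. Chordc1, an Hsp90 co-chaperone, had 103 CPM in wild type against 175, 162 and 163 CPM in the clones (log2 fold change 0.69, SE 0.08, adjusted p = 0.113 in the edgeR quasi-likelihood test, Benjamini-Hochberg adjusted). It lies on chromosome 9 within a stretch from 6 to 19 Mb where the median over 35 tested genes was 0.56, and the part of this in its value was not tested. Serpinh1 had 42.1 CPM in wild type against 27.3, 28.9 and 25.9 CPM in the clones (log2 fold change -0.62, SE 0.11, adjusted p = 0.191, same edgeR test, Benjamini-Hochberg adjusted).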

How the data were processed

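RNA-seq libraries of 1 wild-type ES cell line and 3 Morc3 rescue clones were compared. Per the submitters' processing notes and the study's methods, the authors aligned the read pairs to mm10 with STAR and deposited raw gene counts (uniquely mapped pairs, not normalized). For the annotation, nothing is given in the sources used here. Of the deposited count columns, the reverse-strand one was used because the kit is directional; the forward one held 1.26% to 1.31% as many counts. Rows that name no gene stayed out: 14.5% to 23.0% of read pairs were unmapped, 7.85% to 8.21% multimapping, 23.6% to 24.7% on no gene and 0.264% to 0.329% ambiguous. Depth was 13620914 to 18789457 read pairs on genes, and chi-square per gene was at least 7.17 between any 2 clones, so none was a copy.

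Counts were tested over 13267 genes in R 4.3.3 with edgeR 4.0.16 (glmQLFit, glmQLFTest, TMM scaling, filterByExpr), groups taken from the cell line and genotype labels, at an adjusted p of 0.01 (Benjamini-Hochberg). The standard error is the size of the log2 fold change over the square root of F. CPM use TMM library sizes, log2 CPM a prior count of 2. A count of 0 was given a limit of 3 counts. Gene positions and promoter windows came from RefSeq (GRCm38.p6), exon lengths from GENCODE. A length covers all annotated exons of a gene over all its transcripts, so levels per kilobase compare genes only roughly. The code was tested on simulated data.

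The members and all lists were chosen with earlier results of these data known, and the ER and mitochondrial lists and the motif search after the values were seen. Genes were named by a rule. It took 13 members tied to the heat shock response and the 10 largest differences in each direction with all clones on one side. It also took the members highest and lowest per kilobase in each role and the 5 with the largest spread among clones. Members on chromosomes 13 and 14 and near-identical copies were named too. Other members named were chosen after their values were seen. Alternatives were DESeq2 1.42.0, its size factors alone, limma-voom (limma 3.58.1), the legacy edgeR method, unstranded counts, no filter, 10 counts in every library, TMM leaving out genes above 1% of counts, the threshold 0.05, members without chromosomes 13 and 14, and each clone left out.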

Additional observations from a re-analysis of the deposited data

How the results depend on the processing

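Of 56 alternative values of the counts and medians, 44 stayed within 1.5 times the reported count or within the spread of the clones, and of 432 alternative log2 fold changes of 40 named members, 426 kept direction and side of the threshold. The 1 gene called became 0 with 10 counts in every library, with limma-voom and with edgeR's legacy method, 65 with DESeq2, and 0 to 420 with a clone left out (420 without 3D). Members with an unadjusted p under 0.05 numbered 4 with DESeq2 instead of 9, and 2 to 12 with a clone left out (2 without 3M). For these settings the share over all genes at that p is not given, so the counts have no background beside them. The median over members of 0.03 was 0.0093 without those on chromosomes 13 and 14, and 0.0197 without 3C, -0.0138 without 3D and -0.0077 without 3M. Without 3D, 3 of 81 members passed the threshold (Dnajc6, Hspb1 and Dnajc3), beside 3.17% of all genes tested. The sign changed for Hsp90ab1 without 3C (0.0013), Dnajb13 without 3D (-0.15) and Dnajb3 with limma-voom (-0.0294), all near 0 or from few counts. The ER values without chromosome 14 were added after seeing the data. For the other changes the cause was not tested.

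No paired analysis was possible because 3 rescue clones and 1 wild-type library share fewer than 2 replicate numbers. Leaving out wild type was not possible with 1 library. With 1 wild-type library no difference can be set against the spread of wild type, members under about 20 counts have errors as large as their differences, and a difference between clones of 1 ko line and a parent line cannot be told apart from clonal differences.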
